A study of Mus musculus with 9 samples.

Results

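The regions described here are the 1 kb tiles of the mouse autosomes with the most sequencing reads in a reduced representation bisulfite sequencing (RRBS) experiment. CpG positions were summed in tiles of 1000 bp on chromosomes 1 to 19, tiles with at least 10 reads in each of 9 libraries were kept, and the 0.5% with the most reads summed over the 9 libraries were taken. This gave 323 tiles of 64685. They were chosen by their read counts alone, so their depth is given below as a description and is not tested. The reads of a tile are summed over its CpGs, so a read that covers several CpGs counts once for each.

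The cells were Abl.1, 1 line of immortalised B cells, known as a clonal line, from a female F1 of the cross 129S1/SvImJ x CAST/EiJ, so all groups share 1 clone and 1 genotype. The control group was kept in medium with 1% DMSO, the solvent of the drug, and the other groups received 5-aza-2'-deoxycytidine (5-aza-dC) at 0.2, 2 or 10 µM. All were collected on day 2, after live cells had been separated on a density gradient. DMSO, 0.2 µM and 10 µM had 2 libraries each and 2 µM had 3. The labels name them as replicates of library preparation and do not say whether they came from separate cultures, so p-values measure the spread between these libraries, which may be technical.

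RRBS cuts DNA at a short CpG-containing site and sequences the ends of the fragments, which enriches CpG islands, the CpG-rich stretches found at many gene starts and mostly free of methylation. Sequences present in many copies in the genome but in few copies in the reference assembly, such as the ribosomal RNA genes and satellite repeats, gather the reads of all copies at the places where the assembly holds them. 5-aza-dC is incorporated into replicating DNA, where it traps the maintenance methyltransferase DNMT1, so that newly made DNA loses methylation. Ribosomal RNA genes exist in active, unmethylated copies and silent, methylated copies, and major satellite repeats are normally highly methylated.

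A gene start lay in 55.9% of the 313 tiles that could be checked for one, and 4 promoters are shown because each lies wholly inside 1 of the tiles and is met again below. Clcn4, a chloride/proton exchanger gene, is the only one of the 4 whose tile had far more reads per CpG than other tiles. Tnrc6c, of the GW182 family of miRNA silencing, and Ubtf, a transcription factor of RNA polymerase I at ribosomal genes, belong to pairs of adjacent tiles. Runx3, a Runt family transcription factor, had the most negative log2 change of read share with 10 µM. Sequences are from RefSeq on GRCm38.p6 (mm10), read 5′ to 3′ along the gene from 250 bases before to 50 bases after its start. Capitals mark CCGG, the site of MspI, which RRBS commonly uses. The labels do not name the enzyme.
Clcn4: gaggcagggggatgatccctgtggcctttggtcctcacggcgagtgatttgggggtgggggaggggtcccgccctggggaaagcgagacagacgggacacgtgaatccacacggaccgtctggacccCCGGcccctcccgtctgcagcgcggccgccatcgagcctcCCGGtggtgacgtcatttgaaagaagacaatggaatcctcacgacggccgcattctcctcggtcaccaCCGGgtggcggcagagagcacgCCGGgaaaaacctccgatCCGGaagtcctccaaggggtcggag
Tnrc6c: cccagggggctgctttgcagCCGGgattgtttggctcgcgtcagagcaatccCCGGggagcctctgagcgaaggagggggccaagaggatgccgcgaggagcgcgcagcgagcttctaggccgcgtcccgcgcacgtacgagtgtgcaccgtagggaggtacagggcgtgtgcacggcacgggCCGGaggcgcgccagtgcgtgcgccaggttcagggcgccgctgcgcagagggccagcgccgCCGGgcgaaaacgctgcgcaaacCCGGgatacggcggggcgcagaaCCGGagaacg
Ubtf: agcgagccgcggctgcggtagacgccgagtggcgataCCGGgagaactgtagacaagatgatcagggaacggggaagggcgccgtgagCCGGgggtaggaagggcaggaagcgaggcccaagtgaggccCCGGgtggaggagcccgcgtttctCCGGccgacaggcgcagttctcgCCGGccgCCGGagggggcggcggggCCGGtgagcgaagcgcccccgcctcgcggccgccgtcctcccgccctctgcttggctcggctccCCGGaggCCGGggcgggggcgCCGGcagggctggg
Runx3: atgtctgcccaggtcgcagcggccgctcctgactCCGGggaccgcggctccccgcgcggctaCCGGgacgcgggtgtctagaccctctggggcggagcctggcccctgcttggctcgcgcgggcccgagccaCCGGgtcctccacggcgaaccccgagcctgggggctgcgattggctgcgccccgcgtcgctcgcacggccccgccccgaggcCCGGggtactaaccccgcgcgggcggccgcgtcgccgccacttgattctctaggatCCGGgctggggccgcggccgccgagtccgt

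The windows are chr7:7299508-7299807 on the minus strand for Clcn4, chr11:117654039-117654338 on the plus strand for Tnrc6c, chr11:102317238-102317537 on the minus strand for Ubtf and chr4:135152295-135152594 on the plus strand for Runx3. They hold 5, 6, 10 and 5 CCGG sites and 27, 40, 40 and 45 CpGs. The search was for the letters CCGG, which read the same on both strands. Of the 158 promoter windows of this length lying wholly inside the deepest tiles all 158 held CCGG, against 52.8% of all 32851 promoters in the table, and the median window held 42 CpGs against 7. RRBS reads lie near cut sites and each counts once per CpG, so the selection itself favours such windows. The promoters of the table were not limited to tiles with enough reads, so the difference is not a result about these promoters. At the median CpG of the Clcn4 window 1355 reads had accumulated over the 9 libraries, against 123 for Tnrc6c, 266 for Ubtf and 208.5 for Runx3. Methylation of the 4 windows was between 0.586% and 1.41% in DMSO and between 0.203% and 1.501% with 10 µM, so they were nearly free of methylation with and without the drug.

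The tiles fell into 2 kinds, separated by a gap in the number of reads per CpG (reads summed over the libraries, divided by the CpGs read in every library). The first kind had many CpGs: 294 tiles with a median of 107 CpGs and 146 reads per CpG (96.4 to 319). This median was above the 114 reads per CpG of all tiles with at least 40 CpGs and at most 500 reads per CpG. The second kind had 693 to 356045 reads per CpG and only 29 tiles, with a median of 16 CpGs. No member lay between 319 and 693, and the limit of 500 used here was set after seeing this gap. The gap holds among the members only. Tiles outside the set reached 3995 reads per CpG, and 1 of them, near a member, was at 417.5. For comparison, the median over all 64685 tiles was 6 CpGs and 90.3 reads per CpG. The first kind is therefore called CpG-dense and the second CpG-deep. The 29 CpG-deep tiles carried 5775495 reads and the 294 CpG-dense tiles 4609413. The last tile inside the limit, at the genes 1110065P20Rik and Yrdc on chromosome 4, had 13384 reads, and the one before it, at Lrrc75a, had 13385. The first 3 tiles outside, at Zfp746, Zmiz1 and Plxnd1, had 13382, 13375 and 13373.

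**Figure D1:**
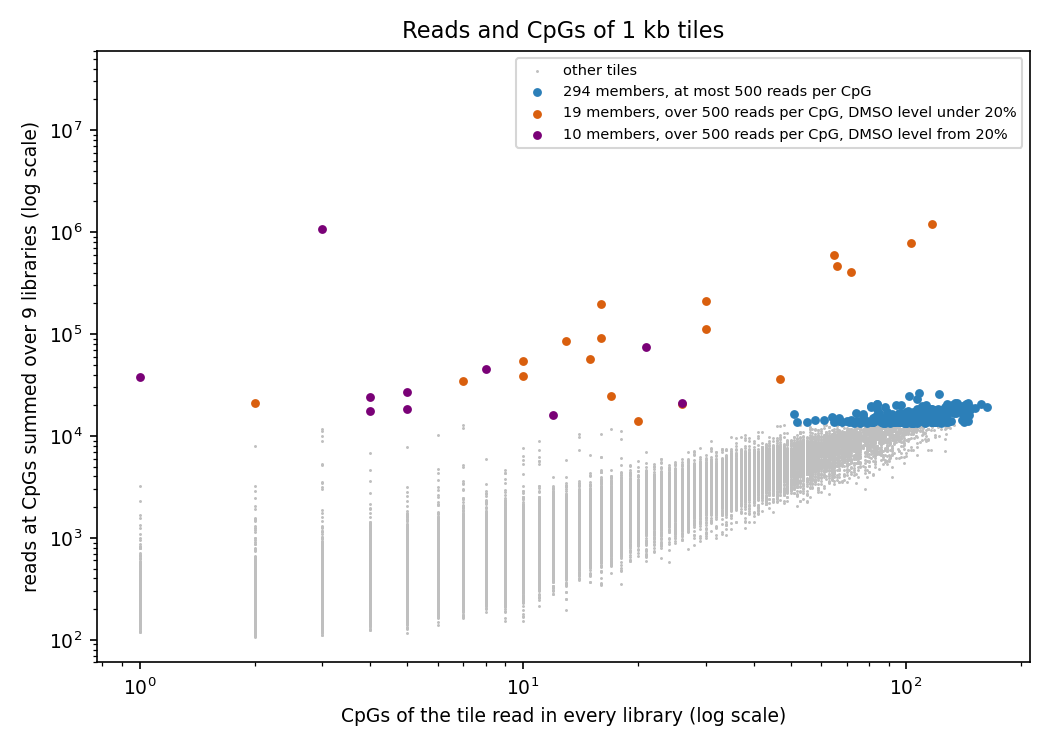
Reads at CpGs summed over the 9 libraries (log scale) against the number of CpGs read in every library (log scale) for each tile with at least 1 such CpG. The CpG-dense members continue the cloud of all tiles at its upper right end, while the 29 CpG-deep members lie above it at 1 to 117 CpGs.

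The 2 kinds also differed in place and methylation. The ranking used neither directly, but it favours tiles with many CpGs, and CpG islands are mostly unmethylated and often at gene starts. These differences are therefore not independent of the selection. The values given for all tiles are not matched for the number of CpGs. A RefSeq gene overlapped 98.3% of the CpG-dense tiles, 48.3% of the CpG-deep tiles and 76.1% of all 64685 tiles. Of tiles on chromosomes in the promoter table, 60.9% of the CpG-dense ones held a gene start, against 6.90% of the CpG-deep ones and 17.7% of all tiles. The median methylation level in DMSO, which is methylated reads over all reads, was 0.495% in the CpG-dense tiles, 14.5% in the CpG-deep tiles and 67.0% in all tiles. Of the CpG-deep tiles, 19 had a DMSO level under 20% and 10 had one of 47.2% to 89.8%, and these are described apart below, a split also made after seeing the levels. Tiles within 50 kb that were not in the set had a median of 105 reads per CpG (59.2 to 1913), over the 25 CpG-deep tiles with such neighbours. Members were left out of these neighbours, so deep tiles beside each other do not enter this value. The tiles of the ribosomal run described below each had 1 such neighbour, at 105, and so weigh on the median.

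Libraries held between 8590883 and 16495535 reads at CpGs, and 1 CpG had 3 to 5 reads at the median. The deposited CpG positions fell on a CG of the GRCm38.p6 promoter sequences in all 254625 cases that could be checked. Over all 64685 tiles the median change in methylation against DMSO was -32.7 percentage points with 0.2 µM, -22.5 with 2 µM and -7.44 with 10 µM, so the fall was largest at the lowest concentration.

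The 323 tiles held 10384908 of the 101193889 reads over all 64685 tiles. Their share of library reads was 9.07% and 9.22% in the DMSO libraries, 8.21% and 8.23% with 0.2 µM, 8.79%, 8.49% and 8.67% with 2 µM, and 8.79% and 8.77% with 10 µM. Every treated library was below both DMSO libraries. As group means this was 9.15% ± 0.108 (SD, n = 2) in DMSO, 8.22% ± 0.0151 (n = 2) with 0.2 µM, 8.65% ± 0.147 (n = 3) with 2 µM and 8.78% ± 0.0157 (n = 2) with 10 µM. The CpG-dense tiles went from 4.72% ± 0.0118 of reads in DMSO to 3.53% ± 0.0452 with 0.2 µM, 3.57% ± 0.103 with 2 µM and 3.80% ± 0.00476 with 10 µM, while the CpG-deep tiles went from 4.43% ± 0.0967 to 4.70% ± 0.0603, 5.08% ± 0.0539 and 4.97% ± 0.0204. Within the CpG-deep kind only the 10 tiles of high methylation had a higher sum, going from 0.535% ± 0.0378 in DMSO to 1.17% ± 0.0363, 1.401% ± 0.0803 and 1.24% ± 0.0438, which is 218%, 262% and 232% of DMSO. The 19 of low methylation had a lower sum. It went from 3.89% ± 0.0589 to 3.53% ± 0.0240, 3.68% ± 0.111 and 3.73% ± 0.0234, which is 90.6%, 94.6% and 95.8% of DMSO. Most of this sum came from the ribosomal run described below (3.21% in DMSO). By tile the 19 were mixed. The mean log2 share was above DMSO in 2, 7 and 8 of them, with median log2 changes of -0.139, -0.0714 and -0.0448. Read shares are given here and below without a test or calls, because the same reads chose the tiles. The ranking summed all 9 libraries, so a tile could also enter the set through a high share in the treated groups alone. When tiles were ranked on the replicate 1 libraries and read in the replicate 2 libraries, the sum over all members was 89.3%, 92.1% and 94.9% of its DMSO value with 0.2, 2 and 10 µM, against 89.9%, 94.6% and 96.0% as reported.

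The largest feature was a run of 6 adjacent tiles on chromosome 17 (chr17:39843001-39849000, mm10) at Rn18s-rs5, an 18S ribosomal RNA sequence. Of these, 3 overlap Rn18s-rs5, 1 of them also AY036118, and the others lie within 2354 bp of it. The run held 3640215 reads and took ranks 1 and 3 to 7. They were the only 6 members at a gene of a list of ribosomal RNA genes, near which 22 of all tiles (0.0340%) lay. Their read share was 3.18% and 3.24% in the DMSO libraries, 2.88% and 2.91% with 0.2 µM, 3.13%, 2.92% and 3.00% with 2 µM, and 3.07% and 3.10% with 10 µM. The treated libraries all lay below the DMSO libraries, with group means of 3.21% ± 0.0402, 2.898% ± 0.0239, 3.02% ± 0.105 and 3.09% ± 0.0192 (SD). For the tile chr17:39844001-39845000 the log2 changes in share were -0.22, -0.22 and -0.20. The tiles of the run did not all change in this direction. The mean log2 share was above DMSO at chr17:39846001-39847000 with 2 and 10 µM, and at chr17:39847001-39848000 with 10 µM.

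Methylation of the ribosomal run was highest with 10 µM, while that of the median tile was below DMSO. Its level, over all reads of the run, was 12.1% and 14.9% in DMSO, 13.5% and 13.8% with 0.2 µM, 15.4%, 14.9% and 16.1% with 2 µM, and 17.9% and 18.5% with 10 µM. Both 10 µM libraries were above all others, while the 0.2 µM libraries lay between the DMSO libraries. The mean was 13.5% ± 1.92 (SD, n = 2) in DMSO and 18.2% ± 0.443 (n = 2) with 10 µM. Each tile was tested in a binomial model with 1 level per group, with the spread between libraries moderated across all tiles with limma and Benjamini-Hochberg adjustment over all 64685 tiles. With 10 µM, 5 of the 6 tiles were higher at an adjusted p under 0.05, by 4.48 to 5.99 points, where 0.0943% of all tiles were called higher. The sixth, chr17:39846001-39847000 over Rn18s-rs5, was at 16.7% and 20.5% in DMSO and 19.4% and 19.98% with 10 µM (1.08 points, adjusted p = 0.687 from the binomial model with limma). With 0.2 µM it was the only one of the run called, and it was lower by 2.87 points (adjusted p = 0.0354, limma), a call that was lost with limma on the levels, with 5 coverage classes and without DMSO replicate 2 or either 0.2 µM library.

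Within the run 329 CpGs had at least 100 reads in every library. In 259 of them (78.7%) both 10 µM libraries lay above both DMSO libraries, and in 12 both lay below. Over all 545 autosomal CpGs with that many reads, most of which are in the run, the shares were 64.8% and 18.9%. Over the 216 CpGs outside it they were 43.5% and 42.1%. In the sixth tile 8 of 30 CpGs lay above. The calls rest on the first DMSO library, which had the lower level of the pair in all 6 tiles: without it, none of the 5 passed the threshold, at differences of 3.05 to 5.05 points. None passed with 5 coverage classes either (described with the counts over all members). Without 10 µM replicate 2, 3 of the 5 passed.

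Of the other 13 CpG-deep tiles of low methylation 8 were called higher with 10 µM, where 0.0943% of all tiles were. With 5 coverage classes 1 of these 8 calls remained, that of chr3:5860001-5861000. By direction alone, all 19 CpG-deep tiles of low methylation had a mean level above DMSO with 10 µM, by at least 0.0911 points. An intronic or exonic position was not determined, and genes are given by overlap only. The tile chr16:11144001-11145000 overlaps Zc3h7a, a zinc finger gene, and had 16 CpGs with 12280.6 reads each. Its level was 9.94% and 11.2% in DMSO, 11.9% and 11.7% with 0.2 µM, 15.3%, 13.5% and 15.3% with 2 µM, and 19.1% and 18.003% with 10 µM. All treated libraries were above both DMSO libraries, and the rises with 2 µM (4.16 points, adjusted p = 0.00119) and 10 µM (7.98 points, adjusted p = 0.000371) were called by the limma-moderated model. The tile chr17:36231001-36232000, 676 bp from Gm18604, went from 4.79% and 5.48% in DMSO to 11.3% and 12.98% with 10 µM (7.004 points, adjusted p = 0.00017, limma). At chr6:3201001-3202000, 2490 bp from LOC115490388, the levels were 6.74% and 9.97% in DMSO, 9.93% and 9.98% with 0.2 µM, 13.2%, 16.1% and 16.1% with 2 µM, and 19.7% and 15.7% with 10 µM. At chr3:5860001-5861000, 108706 bp from the nearest gene, Gm8797, they were 8.12% and 7.89% in DMSO, 10.1% and 10.5% with 0.2 µM, 13.8%, 14.2% and 14.8% with 2 µM, and 16.95% and 17.9% with 10 µM. It was the only CpG-deep tile with a rise called at all 3 concentrations, and with 5 coverage classes the calls at 0.2 and 2 µM were lost. The largest rise of any member with 10 µM was at chr14:104715001-104716000 in D130009I18Rik, from 13.2% and 13.4% in DMSO to 23.6% and 23.7% (10.3 points, adjusted p = 0.000238, limma).

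A tile at Cdk8, the kinase of the Mediator complex (chr5:146261001-146262000), fell first and then rose: it was at 18.1% and 19.5% in DMSO, 14.4% and 13.97% with 0.2 µM, 19.5%, 20.8% and 20.6% with 2 µM, and 26.8% and 25.9% with 10 µM. The fall with 0.2 µM (adjusted p = 0.00244) and the rise with 10 µM (adjusted p = 0.00264) were both called by the limma-moderated model, and both calls were lost with 5 coverage classes. At Arhgap21 2 CpGs 4 bases apart (20900138 and 20900142 on chromosome 2) held nearly all reads of a tile that fell from 15.45% and 19.9% to 11.99% and 11.8% with 0.2 µM and stood at 20.6% and 20.3% with 10 µM, where the difference of 2.73 points was not called (adjusted p = 0.207, limma). A different order was seen at chr10:11492001-11493000, 15885 bp from LOC115487525. Its level was 0.955% and 0.703% in DMSO, 4.002% and 3.15% with 0.2 µM, 1.47%, 1.56% and 1.69% with 2 µM, and 0.959% and 1.48% with 10 µM, and a rise was called only with 0.2 µM (2.75 points, adjusted p = 5.45e-05, limma), a call lost with 5 coverage classes. The Clcn4 tile stayed under 2% in every library.

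Among the 19 CpG-deep tiles of low methylation, 13 were called higher and none lower with 10 µM. With 2 µM 8 were called higher and none lower, and with 0.2 µM 2 higher and 4 lower. Over all tiles 0.0943% and 11.7%, 0.105% and 47.8%, and 0.0309% and 62.1% were called higher and lower in the same order. Over the 5999 tiles with a DMSO level from 2% to 20% it was 0.817% and 0%, 0.833% and 0.800%, and 0.250% and 12.6%. Most of these calls were lost with 5 coverage classes, which left 1 of the 19 higher with 10 µM, 1 higher with 2 µM and none called with 0.2 µM. Without DMSO replicate 1, 5 were higher with 10 µM, and 6 were higher and 2 lower with 2 µM. Their median level over tiles was 11.4% ± 1.46 in DMSO, 11.9% ± 0.119 with 0.2 µM, 14.7% ± 0.803 with 2 µM and 18.1% ± 0.106 with 10 µM (SD over libraries). In the same libraries the CpG-dense tiles had median levels of 0.483%, 0.463%, 0.486% and 0.468%.

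The second deepest tile and its neighbour behaved in the opposite way. The tile chr2:98666001-98667000 had 3 CpGs and 1068135 reads, and chr2:98662001-98663000 had 1 CpG and 38191 reads. The nearest RefSeq gene, Gm33780, lies 35599 bp from the first. They were among the most methylated members. The first was at 89.7% and 90.03% in DMSO, 44.3% and 44.9% with 0.2 µM, 49.9%, 50.8% and 50.9% with 2 µM, and 67.5% in both 10 µM libraries. The second followed at 85.3% and 87.0%, then 41.4% and 40.9%, then 47.7%, 49.1% and 50.6%, then 69.3% and 66.4%. No 2 groups overlapped in either tile, and methylation was lowest with 0.2 µM and rose with each higher concentration while it stayed below DMSO. The 3 CpGs of the first tile, at positions 98666262, 98666272 and 98666503, went from 92.6%, 87.7% and 89.0% in DMSO to 48.6%, 42.2% and 41.3% with 0.2 µM and 71.7%, 65.9% and 61.0% with 10 µM.

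The share of reads in this pair was higher in every treated library than in DMSO. Together the 2 tiles took 0.391% and 0.412% of reads in DMSO, 0.926% and 0.982% with 0.2 µM, 1.07%, 1.21% and 1.20% with 2 µM, and 1.07% and 0.999% with 10 µM. The group means were 0.402% ± 0.0154, 0.954% ± 0.0392, 1.16% ± 0.0791 and 1.03% ± 0.0471, which is 238%, 289% and 257% of DMSO. On the scale log2(RPM + 1), where RPM is the reads of a tile scaled to a common library total, fitted with limma across all tiles, the difference from DMSO was 1.24 ± 0.04 (SE), 1.52 ± 0.04 and 1.36 ± 0.04 with 0.2, 2 and 10 µM in the first tile and 1.53 ± 0.09, 1.81 ± 0.08 and 1.54 ± 0.09 in the second. With limma's voom weights the first tile had changes of 1.28, 1.55 and 1.43 each with an SE of 5.20. The cause of this SE was not tested. Between treated groups the share and the methylation of the pair did not follow each other: share was highest with 2 µM and methylation lowest with 0.2 µM.

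The other 8 CpG-deep tiles of high methylation fell as the pair did. The tile at Sfi1, a gene of the centrin-binding family that lies in a block present in many copies (chr11:3193001-3194000), was at 65.9% and 69.0% in DMSO, 44.1% and 45.2% with 0.2 µM, 49.0%, 47.1% and 49.2% with 2 µM, and 61.8% and 59.5% with 10 µM. Its share of reads was 0.0385% and 0.0457% in DMSO, 0.0577% and 0.0628% with 0.2 µM, then 0.0718%, 0.0723% and 0.0765%, then 0.0689% and 0.0694%. At Tcra, the T cell receptor alpha locus (chr14:53936001-53937000), methylation was 82.8% and 82.6% in DMSO, 47.9% and 47.8% with 0.2 µM, 41.6%, 43.5% and 43.9% with 2 µM, and 60.2% and 65.3% with 10 µM. At chr14:6557001-6558000 in Gm52091 it was 89.9% and 87.7%, then 58.1% and 57.4%, then 47.1%, 50.8% and 50.2%, then 64.8% and 63.5%, so that here 2 µM and not 0.2 µM was lowest. A run of 2 tiles on chromosome 4 (chr4:144816001-144818000), 3973 bp from Gm46890, had the largest log2 change in read share of any member with 0.2 µM, though from a small share. Its first tile took 0.00500% and 0.00651% of reads in DMSO, 0.0210% and 0.0207% with 0.2 µM, 0.0186%, 0.0203% and 0.0208% with 2 µM, and 0.0116% and 0.0109% with 10 µM, a log2 change of 1.85, 1.78 and 0.97. This first tile held 18560 reads over all libraries, where the last member had 13384, so it may have entered the set through the treated libraries. The methylation of this first tile was 76.2% and 77.0% in DMSO against 38.0% and 39.95%, then 30.03%, 33.9% and 34.1%, then 53.2% and 51.1%.

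At chr5:90169001-90170000, 23305 bp from Gm35936, methylation was 75.4% and 78.1% in DMSO, 41.3% and 40.7% with 0.2 µM, 52.3%, 51.0% and 55.3% with 2 µM, and 65.5% and 66.2% with 10 µM, all falls being called (that with 10 µM was lost with 5 coverage classes). Its share of reads was 0.0165% and 0.0228% in DMSO and 0.0187% to 0.0241% in the treated libraries, which overlap. Neighbouring CpGs could also differ in level. In the tile chr3:78339001-78340000 the CpG at 78339278 was at 78.5% in DMSO, 37.1% with 0.2 µM and 49.7% with 10 µM, while the CpG at 78339294, with 4093 reads over the 9 libraries, was at 0% in every library.

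All 10 highly methylated CpG-deep tiles were called lower than DMSO at every concentration and called higher with 10 µM than with 2 µM. All these calls together were made in 0.798% of all tiles. They were made in 0.135% of the 19236 with a DMSO level from 20% to 80% and in 1.95% of the 25120 from 80%. By direction alone, most tiles of like level changed in the same way. Of the 25120, 25115, 25096 and 24111 were below DMSO with 0.2, 2 and 10 µM, and 23494 were higher with 10 than with 2 µM. Of the 19236 it was 19154, 18489 and 15011, and 16914. The sizes of change differed less than the counts of calls. From 2 to 10 µM the median change was 14.3 points in the 10, 11.3 in tiles from 20% to 80% and 18.7 in those from 80%. Called falls alone were common at these levels. With 0.2, 2 and 10 µM 77.2%, 40.1% and 2.84% of tiles from 20% to 80% were called lower, and 97.6%, 92.2% and 28.0% of those from 80%. The median changes of the 10 were -32.9, -34.3 and -18.2 points. They were -32.8, -20.7 and -8.60 in tiles from 20% to 80% and -58.0, -41.0 and -21.4 in those from 80%. Calls also depend on the reads of a tile, so the counts of calls do not set the 10 apart by size of change. With 5 coverage classes 10, 10 and 7 of the 10 were called lower than DMSO and 6 were called higher with 10 than with 2 µM. From 0.2 to 2 µM 3 were called higher and 2 lower (7.99% and 0.318% of all tiles). The mean log2 share of reads was above that of DMSO in all 10 at each concentration, with median log2 changes of 0.72, 1.004 and 0.85, and in at least 9 without any 1 library. The ranking counted treated libraries too, which favours members with a higher share there, so this count is a description only.

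**Figure D2:**
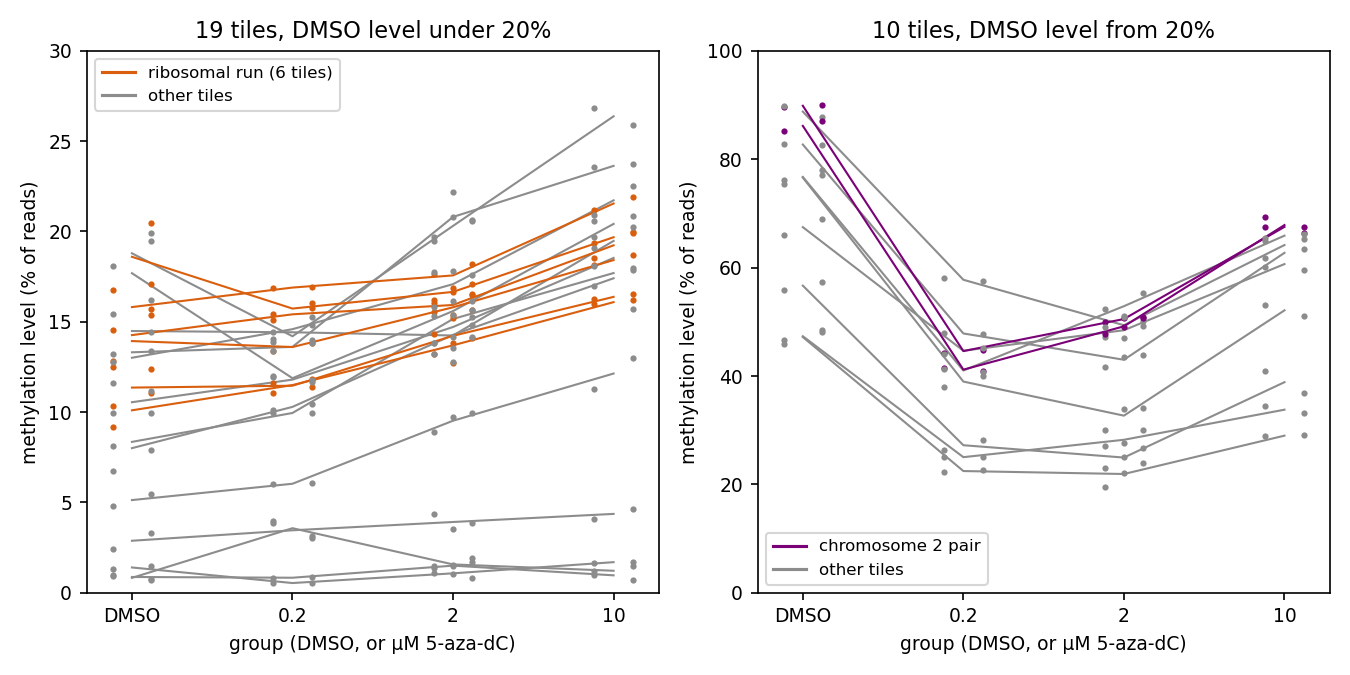
Methylation level (percent of reads) of the 29 CpG-deep tiles by group, with 1 point per library and lines through the group means; the left panel runs to 30% and the right panel to 100%. The ribosomal tiles and most others of low level are highest with 10 µM, and the 10 tiles of high level lie below their DMSO value at each concentration.

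Counted over all 323 members, 4 tiles were called higher and 47 lower with 0.2 µM, where 0.0309% and 62.1% of all tiles were called higher and lower. The counts that follow are of calls too. With 2 µM 11 were higher and 14 lower (0.105% and 47.8% of all tiles), and with 10 µM 16 were higher and 10 lower (0.0943% and 11.7%). From 0.2 to 2 µM 20 were higher and 3 lower (7.99% and 0.318%), and from 2 to 10 µM 19 were higher and none lower (5.48% and 0.0139%). The members called higher than DMSO were 1.24%, 3.41% and 4.95% of the set with 0.2, 2 and 10 µM, and those called lower were 14.6%, 4.33% and 3.10%. All tiles are far more methylated than most members, so each kind of member is also set beside tiles of like DMSO level. The median change over members was -0.07, -0.01 and -0.03 points. These counts rest on how the within-tile correlation of reads was estimated. The deepest 0.5% of tiles formed a coverage class of their own, a choice made after seeing the data, and with 5 equal classes in its place 1 tile was higher with 10 µM and 7 lower. With limma on the levels 14 were higher and 11 lower. Without DMSO replicate 1, 6 were higher. Without either 0.2 µM library no member was called between 0.2 and 2 µM.

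In the CpG-dense tiles methylation was low throughout, and 264 of the 294 were under 2% in DMSO, a limit set after seeing the levels. Of these 264, 1 was called higher and 7 (2.65%) lower with 0.2 µM, against 0.0349% and 0.0558% of the 14330 tiles under 2%. With 5 coverage classes none of the 264 was called against DMSO. Their median change was between -0.03 and 0.01 points at each concentration, and that of all tiles under 2% was also -0.03 points with 0.2 µM. Of the 30 with a DMSO level from 2%, 26 were called lower and 1 higher with 0.2 µM. With 2 µM 4 were called lower and 1 higher, and with 10 µM none lower and 2 higher. The median changes of the 30 were -2.16, -0.85 and -0.12 points. The share called lower was 86.7% with 0.2 µM and 13.3% with 2 µM, against 12.6% and 0.800% of all tiles from 2% to 20%. The median change over all those tiles was -3.95 and -1.14 points, so the 30 members were called more often but did not fall further. With 5 coverage classes 4 of the 26 falls remained, at Bahcc1, Syde2, Frat1 and Celf2, and no other call against DMSO. A tile at Bahcc1, a bromo-adjacent homology domain gene, went from 9.35% in DMSO to 2.34% with 0.2 µM, 7.09% with 2 µM and 9.50% with 10 µM. At Notum, a Wnt deacylase gene, the group means were 7.81%, 3.36%, 6.22% and 8.44%, and at Foxd2, a forkhead gene, 6.32%, 2.49%, 4.26% and 6.45%. At Nog, a gene of a BMP antagonist, the libraries were at 9.28% and 9.45% in DMSO, 5.17% and 3.65% with 0.2 µM, 7.37%, 10.9% and 7.82% with 2 µM, and 12.1% and 14.8% with 10 µM, with a fall called with 0.2 µM and a rise with 10 µM. Bahcc1, Notum, Foxd2, Nog, Syde2, Frat1 and Celf2 were named after their values were seen.

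Among the 30 CpG-dense tiles with a DMSO level from 2%, 1 was called higher at every concentration. It lies in Ppp2r5a, which encodes a regulatory subunit of protein phosphatase 2A (chr1:191396001-191397000), had 122 CpGs and was the most methylated of its kind. The level of the Ppp2r5a tile was 14.9% and 16.8% in DMSO, 22.3% and 20.7% with 0.2 µM, 19.5%, 22.0% and 20.2% with 2 µM, and 25.4% and 25.6% with 10 µM. All treated libraries were above both DMSO libraries, and the changes were 5.64, 4.71 and 9.69 points (adjusted p = 0.00118, 0.00336 and 0.000691, binomial model with limma). None of the 3 calls remained with 5 coverage classes. Over all tiles 0.0309%, 0.105% and 0.0943% were called higher with 0.2, 2 and 10 µM. Of those with a DMSO level from 2% to 20% it was 0.250%, 0.833% and 0.817%.

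Read share was lower than in DMSO in nearly all CpG-dense tiles. Against DMSO 293 of the 294 had a lower mean log2 share with 0.2 µM and with 2 µM and 289 with 10 µM, with median log2 changes of -0.41, -0.40 and -0.30. The median over all tiles was 0.21, 0.23 and 0.18, so these tiles lay below a background that moved the other way. The most negative log2 changes were small in reads. At Map3k1, a MAP kinase kinase kinase gene, the tile took 0.0157% and 0.0166% of reads in DMSO, 0.00923% and 0.00918% with 0.2 µM, 0.0114%, 0.0119% and 0.0119% with 2 µM, and 0.00962% and 0.00988% with 10 µM. At N4bp2 the log2 changes were -0.74, -0.87 and -0.60, at Rnf126, a ubiquitin ligase gene, -0.43, -0.85 and -0.63, and at Runx3 -0.67, -0.78 and -0.87. For the Tnrc6c promoter tile they were -0.67, -0.44 and -0.75.

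Lower shares were also found outside the set. Over all tiles the median log2 change in share went with the DMSO level: it was -0.40, -0.39 and -0.31 with 0.2, 2 and 10 µM in the 14330 tiles under 2%, -0.21, -0.23 and -0.18 in those from 2% to 20%, 0.29, 0.30 and 0.27 in those from 20% to 80%, and 0.52, 0.55 and 0.46 in the 25120 from 80%. The medians of the CpG-dense tiles, given above, are close to those of all tiles under 2%. A share is a part of a fixed total, so gains in methylated tiles and losses in unmethylated tiles cannot be told apart. The sizes depended on the scaling: with each library centred on its median tile the median changes were -0.81, -0.79 and -0.63 in the CpG-dense tiles and 0.32, 0.61 and 0.51 in the CpG-deep tiles of high methylation.

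**Figure D3:**
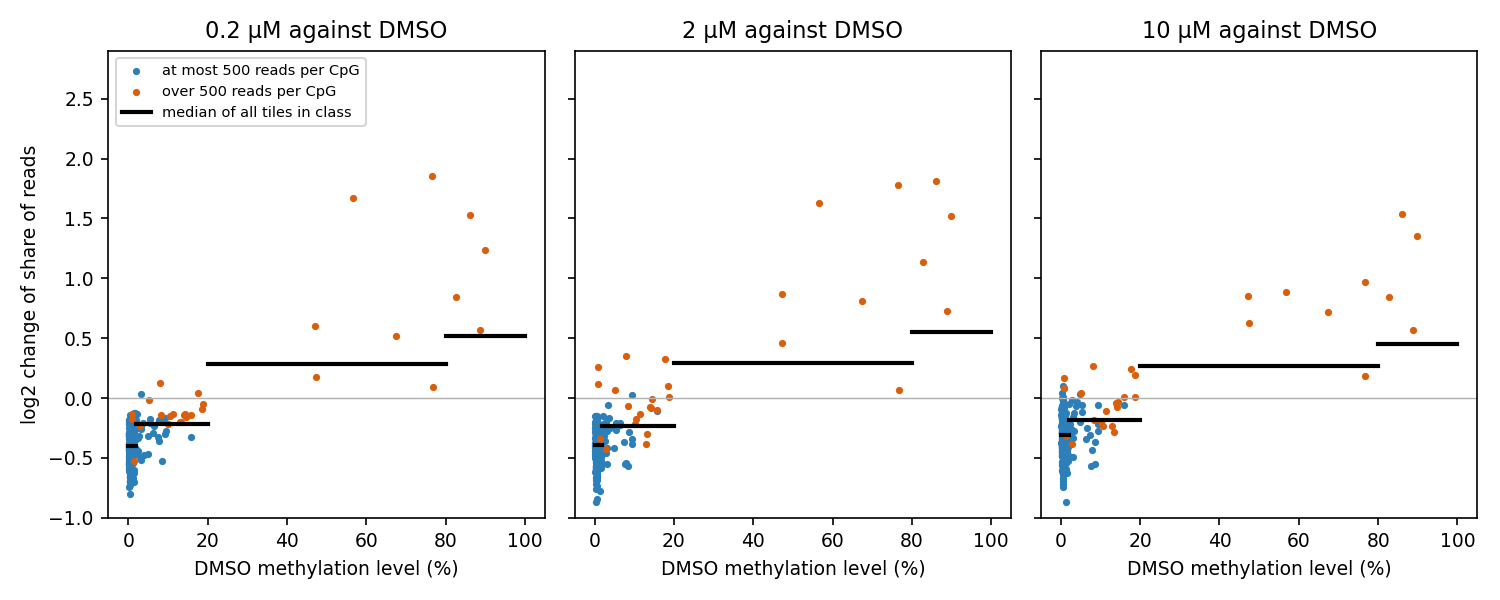
Log2 change of each member's share of reads against its DMSO methylation level (percent), with 1 panel per concentration; black lines are medians over all 64685 tiles in 4 classes of DMSO level. The CpG-dense tiles lie around the median of unmethylated tiles, which is -0.40, -0.39 and -0.31, and the CpG-deep tiles of high methylation lie above 0.

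The tiles were unevenly spread over chromosomes. Chromosome 11 held 62 of the 323, 1.07% of its tiles with enough reads, and no other chromosome exceeded 0.666%. Beyond 90 Mb it held 54 members among 3105 tiles (1.74%), before 90 Mb 8 among 2713 (0.295%), and all tiles outside this distal segment 269 among 61580 (0.437%). The depth of this segment was also seen in a wider set of tiles that includes the CpG-dense members. In tiles with at least 40 CpGs and at most 500 reads per CpG, which leaves out the CpG-deep tiles, the distal segment had a median depth of 1.41 and 1.39 times the library median in DMSO, 1.42 and 1.40 with 0.2 µM, 1.36, 1.37 and 1.38 with 2 µM, and 1.32 and 1.36 with 10 µM. The same chromosome before 90 Mb was at 0.980 to 1.01 in the 9 libraries. The segment was therefore deeper in every library, treated or not. Its 253 such tiles include its 52 CpG-dense members, so these medians are not those of non-members alone, which are given below. The limit of 90 Mb was set after seeing the depth. Among 10 Mb windows of the autosomes with at least 20 such tiles, the 4 windows of the segment were at 1.31 to 1.499 and the others at 0.786 to 1.15. In windows of 2 Mb the step lay between the window from 88 to 90 Mb, at 0.933, and that from 90 to 92 Mb, at 1.43, which rests on 3 tiles.

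**Figure D4:**
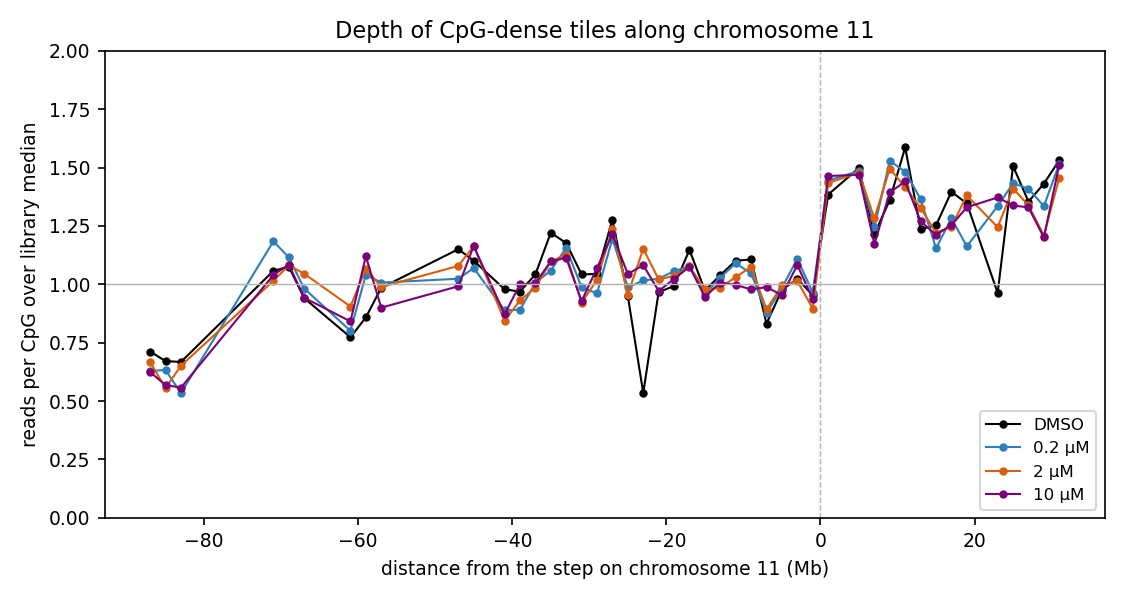
Depth of tiles with at least 40 CpGs and at most 500 reads per CpG, members included, in windows of 2 Mb along chromosome 11. It is given as reads per CpG over the library median, averaged over the libraries of each group and plotted by distance (Mb) from the step at 90 Mb. Windows with fewer than 3 tiles are left out. All 4 groups rise at the step, from 0.933 to 1.43 over all libraries. The 3 windows of the first 10 Mb are at 0.601 to 0.659 over all libraries, and the window from 66 to 68 Mb, with 3 tiles, is at 0.535 in DMSO alone.

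Of the 54 members in the segment 52 were CpG-dense, among them both pairs of adjacent tiles at Tnrc6c (40878 reads) and Ubtf (36134 reads). The tiles near the 52 that were not members had a median of 115 reads per CpG, against 96.5 near the other 239 CpG-dense members with such neighbours. At the other end of chromosome 11 the first 10 Mb were at 0.557 to 0.667 of the library median in the 9 libraries, from 17 tiles. The RefSeq lists gave few other themes. No member was near a gene of the list of growth and leukaemia genes, near which 135 of all tiles (0.209%) lay, or of the imprinted list (106 tiles, 0.164%). At these shares none among 323 is close to the background. The developmental regulators, with names such as Fox, gave 4 members (1.24%, against 1.69% of all tiles) and the Zfp genes 9 (2.79% against 1.60%). Small RNA genes were near 13 members (4.02% against 2.41%), among them Mir17 and its cluster. Of the multi-copy list only Sfi1 was near a member (1 tile, 0.310%, against 0.0464% of all tiles). On X and Y none of 2103 tiles with enough reads reached the depth limit.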

How the data were processed

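DNA methylation was read by RRBS in 9 libraries. Per the labels' protocols, the authors made libraries from 50 ng of DNA with 11 PCR cycles. The deposited tables give, for each CpG, methylated and all reads as text, and a score, which equalled 1000 times the methylated share rounded down in every line. Positions are on mm10, per the submitters' processing notes, with aligner, caller and filters not given in the sources used here.

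CpGs were summed in tiles of 1000 bp on chromosomes 1 to 19. Methylation was tested with a binomial model whose reads were scaled to an effective size by the within-tile correlation of each coverage class, with dispersion moderated by limma 3.58.1 (R 4.3.3). Share was fitted with limma with a trend on log2(RPM + 1). Both used 4 groups, Benjamini-Hochberg adjustment over 64685 tiles and a threshold of 0.05. Calls of share served only to name tiles, since the same reads chose the members. Because the reads are stored as text, no count model was used. Python 3.11.15, numpy 2.4.6 and pandas 2.3.3 were used elsewhere. On simulated data with 200 changed tiles among 64685, the methylation test at 10 µM against DMSO called 53 of them and 4 unchanged tiles.

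Libraries held 8590883 to 16495535 reads at CpGs. PCR copies were not separated, so tests do not see copies of 1 molecule as such. The members and gene lists were chosen with earlier results of these data known. Tiles were named by rank of reads, reads per CpG, DMSO level, the largest called changes whose groups do not overlap, runs, edge of the limit and gene lists. By exception, Cdk8, Clcn4, Bahcc1, Notum, Foxd2, Nog, Syde2, Frat1, Celf2 and the tile at chr3:78339001-78340000 were named after their values were seen. 1 tile that this rule names is not reported here.

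Alternatives were another read minimum, ranking, model, scaling, pseudocount and replicate block, and leaving out each library. Chromosomes X and Y were left out of the ranking.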

Additional observations from a re-analysis of the deposited data

How the results depend on the processing

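Of the 323 members, 196 stayed with a minimum of 20 reads, 29 when ranked by reads per CpG and 64 with a limit of 0.1%, and leaving out 1 library kept 313 to 323. The summed share as a percentage of DMSO was 92.1 at 2 µM with ranking on replicate 1 and values from replicate 2. At 0.2, 2 and 10 µM it was 106, 115 and 112 for tiles over 500 reads per CpG, where the direction reversed through the 10 of high methylation, at 218, 262 and 232. The sum over the other 19 did not reverse, at 90.6, 94.6 and 95.8. It was 74.8, 75.6 and 80.6 for tiles of at most 500 reads per CpG. Leaving out 1 library gave 89.2 to 90.7, 93.8 to 95.4 and 95.2 to 96.8. The median methylation of members in DMSO was 0.528% unweighted. With a minimum of 20 reads it was 0.532% in DMSO and 0.529% at 10 µM. Ranked on reads per CpG it was 80.7%, 35.9%, 46.2% and 62.3% in DMSO and at 0.2, 2 and 10 µM. Without 1 library the 4 medians ranged from 0.506% to 0.521%, 0.477% to 0.502%, 0.499% to 0.530% and 0.495% to 0.515%.

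Counts of members higher or lower in methylation are counts of calls, here and below. With limma on levels 8 members were called higher at 0.2 µM. With 5 coverage classes 0 were higher and 14 lower at 0.2 µM, 1 was higher at 2 µM and 1 at 10 µM, 0 were higher and 0 lower from 0.2 to 2 µM, and 6 were higher from 2 to 10 µM. In this setting the very deep tiles share a correlation with shallower ones, and which value is nearer the truth was not tested. Without 1 library, 2 to 5 were higher and 30 to 48 lower at 0.2 µM, 7 to 14 and 12 to 15 at 2 µM, and 6 to 16 and 9 to 10 at 10 µM. From 0.2 to 2 µM it was 0 to 26 and 0 to 3, with 0 without either 0.2 µM library. From 2 to 10 µM it was 8 to 20 higher, with 8 or 10 if 10 µM replicate 2 or 1 was dropped and 12 if 2 µM replicate 2 or either 0.2 µM library was, and 0 to 0 lower. Without either 0.2 µM library 2 were higher at 0.2 µM, and without DMSO replicate 1, 7 at 2 µM and 6 at 10 µM.

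For read share, median centring gave median log2 changes of -0.81, -0.79 and -0.63 in the CpG-dense tiles and 0.32, 0.61 and 0.51 in the CpG-deep tiles of high methylation. It turned 10 single values negative: at chr2:20900001-20901000 -0.35 at 0.2 µM and -0.072 at 2 µM, at chr17:39846001-39847000 -0.30 at 2 µM and -0.15 at 10 µM, at chr17:39847001-39848000 -0.33 at 10 µM, at chr17:36231001-36232000 -0.33 at 2 µM and -0.30 at 10 µM, and at 2 µM -0.049 at chr3:5860001-5861000, -0.14 at chr10:11492001-11493000 and -0.33 at chr5:90169001-90170000. Centring moves all tiles of a comparison by the same amount, so small positive values turn negative. Without centring and without 1 library, the medians of the CpG-dense tiles ranged from -0.42 to -0.41, -0.42 to -0.38 and -0.32 to -0.29. Those of the CpG-deep tiles of high methylation ranged from 0.58 to 0.87, 0.87 to 1.14 and 0.69 to 0.99. The tiles lower in share among the CpG-dense ranged from 291 to 294, 293 to 294 and 273 to 289, and those higher among the 10 from 9 to 10 at each concentration.

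Replicate numbers did not pair the libraries: deviations of libraries with the same number correlated at -0.0431 to 0.0397 for share and -0.00942 to 0.0059 for levels. With the replicate block, fitted without the third 2 µM library, methylation was higher and lower in 4 and 45 members at 0.2 µM, 8 and 12 at 2 µM, 16 and 10 at 10 µM, 16 and 3 from 0.2 to 2 µM and 14 and 0 from 2 to 10 µM.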
